A study of Homo sapiens with 3 samples.

Results

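The DEAD and DEAH box RNA helicases were followed in NCI-H23, an established human lung adenocarcinoma cell line, after siRNA against USP16, an enzyme that takes ubiquitin off histone H2A. Members were all rows named DDX or DHX with a number and at most 1 of the letters A, B or X, leaving out DDX58 and DDX60. This gave 52 genes of 50868, 36 named DDX and 16 named DHX. The readthrough row ATP6V1G2-DDX39B was followed beside DDX39B. There were 2 libraries from cells given USP16 siRNA, called knockdown libraries 1 and 2 after their labels, and 1 library from cells given control siRNA. They held 13956382, 15071179 and 14007161 counts in that order. All are the same line, transfected with siRNA, and the labels give neither the time after transfection nor what sets knockdown libraries 1 and 2 apart, different siRNAs or different cultures. Any p-value below takes its spread from the 2 knockdown libraries, pooled over genes, and includes no variation of the control. That spread may therefore be only technical.

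RNA helicases of this family use ATP to pull apart short RNA duplexes or strip proteins from RNA, and the names come from the amino acids of a conserved ATPase motif. Different members drive successive steps of an mRNA's life, among them spliceosome remodelling, export through the nuclear pore, translation initiation and decay, and many others act in the nucleolus on ribosome precursors. Most are expressed in every dividing cell, while a few belong to the germ line or to the sensing of viral RNA.

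USP16 itself had 109 and 245 counts in knockdown libraries 1 and 2, against 632 in the control library. As CPM (each count divided by its library total, adjusted with TMM factors) these are 7.69 and 15.8 CPM against 47.5 CPM, so both knockdown libraries lay below the control, but the gene did not pass the test (edgeR, adjusted p = 0.561). Of the 5 epithelial markers, KRT18 stood at 140 and 216 CPM in the knockdown libraries and 218 CPM in the control. KRT8 had 78.9 and 121 CPM against 166 CPM, and KRT19 had 3.88 and 3.34 CPM against 4.66 CPM. EPCAM had 11.4 and 14.9 CPM against 2.85 CPM, and CDH1 had 2.75 and 5.98 CPM against 10.7 CPM. The 4 lung lineage markers summed to 1.69 and 1.22 CPM in the knockdown libraries and 1.95 CPM in the control, with SFTPB and SFTPC at 0 in every library. Of the 4 leukocyte markers, CD68 had 144 and 130 counts in the knockdown libraries, against 78 in the control, and PTPRC, CD3E and LYZ had at most 1 count in any library. In such bulk RNA, fewer cells of a kind and less RNA per cell cannot be told apart, and whether the marker differences play a part in the values below was not tested.

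No member of the family passed the test over all genes. With edgeR's quasi-likelihood test and an adjusted p threshold of 0.05 over 17287 genes, 0 of the 48 members measured passed, where 0.0174% of all genes did. DESeq2 passed 0 as well, where it passed 0.0946% of its genes. At an unadjusted p under 0.05 each tool had 1 member, DHX37, and edgeR had 4.88% of all genes. The readthrough row ATP6V1G2-DDX39B, which is not a member, passed as lower (edgeR, adjusted p = 0.000392). It had 0 and 0 counts in the knockdown libraries, against 637 in the control. The row itself thus showed no spread, and its p rests on spread estimated over other genes and on 1 control value. Its reads may not be separable from those of DDX39B, as described below. With a single control library the test rests on 1 residual degree of freedom, and an exact permutation test of a single value over these 3 libraries could not go below p = 0.333.

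The 52 genes together held a slightly larger share of the counts in both knockdown libraries. The share was 0.841% in library 1, with a 95% Wilson interval from 0.836 to 0.846, and 0.866% in library 2, from 0.861 to 0.871. It was 0.765% in the control, from 0.761 to 0.770, so neither knockdown interval reached that of the control. After TMM scaling the summed levels were 8282 and 8390 CPM in the knockdown libraries and 8050 CPM in the control. DDX21 alone had 841 and 994 CPM in the knockdown libraries, against 579 CPM in the control. Its rise was larger than that of the sum in both knockdown libraries, so on this scale the other members together lay below the control. The Wilson intervals, like all others here, cover counting error only, and the share has no replicate test. The median log2 change over the 48 measured members was 0.03 in knockdown library 1 and -0.00 in library 2, beside 0.00 and -0.00 over all genes tested. Changes are differences of log2 CPM with a prior count of 2. The mean of both libraries ranged from -0.66 for DHX8 to 1.12 for DHX37.

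By size alone, 1 member, DHX37, was at least 2-fold higher in both knockdown libraries, where 3.75% of all genes tested were, and 1.36% of those averaging 100 counts or more. There were 0 members at least 2-fold lower in both, where 1.68% of all genes tested and 1.02% of those averaging 100 counts or more were. Of the 48 members, 47 had a mean of at least 100 counts. Both knockdown libraries lay above the control for 14 members, where 33.4% of all genes tested and 29.7% of those averaging 100 counts or more did. They lay below it for 13 members, where 33.5% and 36.6% did. For the other 21 the control lay between them. The knockdown libraries share their control, so a high or low value of that library moves both changes at once.

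**Figure D1:**
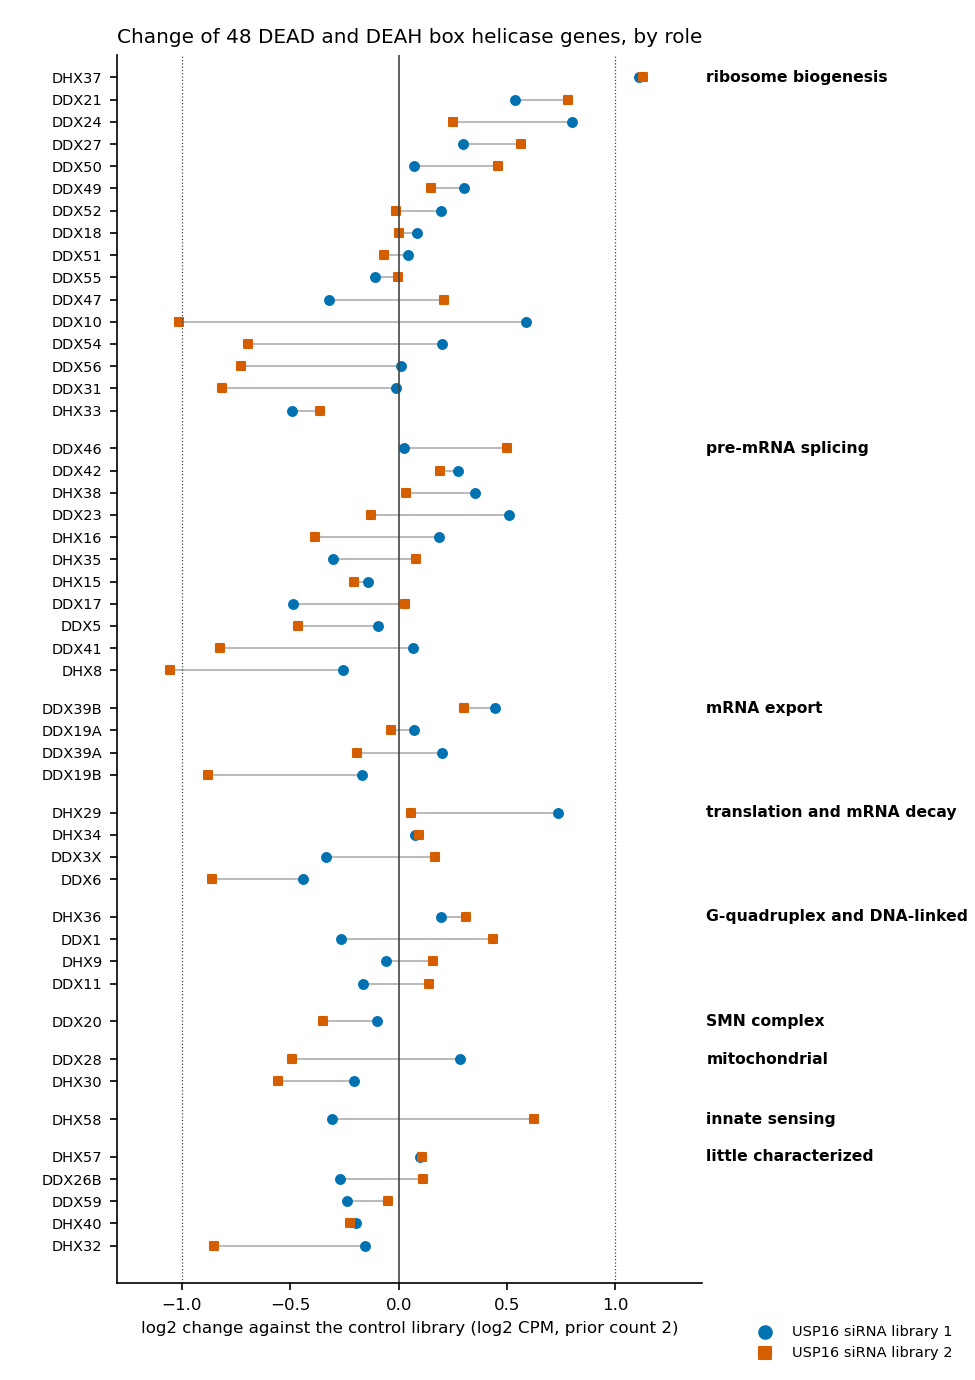
Log2 change of each of the 48 measured members against the control library, in knockdown library 1 (circles) and library 2 (squares), grouped by role, with DDX39B drawn under export. Most pairs of points lie between -1 and 1 (dotted lines). DHX37 is past 1 in both libraries, at 1.11 and 1.13, and DDX10 has its points farthest apart, at 0.59 and -1.01.

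Of the 16 members that act in ribosome biogenesis, 6 had both knockdown libraries above the control and 3 both below it, where 33.4% of all genes tested lay above and 33.5% below, and 0 passed the test. DHX37, a DEAH box helicase that frees the U3 snoRNA from the small-subunit precursor, had 1822 and 2027 counts in the knockdown libraries, against 793 in the control. Its levels were 129 CPM (exact Poisson 95% interval 123 to 135) and 130 CPM (125 to 136) against 59.6 CPM (55.5 to 63.9). The knockdown libraries lay close together and well above the control. The log2 changes were 1.11 and 1.13, with a mean of 1.12 ± 0.01 (SD, n = 2). Such an SD does not include how the lone control varies. The gene did not pass (edgeR, adjusted p = 0.999), and its adjusted p stayed between 0.740 and 1.0 in the other settings. DHX37 lies on the minus strand of chromosome 12 at 124946825 to 124989122 (hg38).

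DDX21, a nucleolar helicase that couples rRNA transcription with rRNA processing, came next. It had 11914 and 15456 counts in the knockdown libraries, against 7704 in the control, or 841 and 994 CPM against 579 CPM. Both knockdown libraries were above the control, with log2 changes of 0.54 and 0.78 (edgeR, adjusted p = 0.999). Its closest paralog DDX50, also nucleolar, had 833 and 1199 counts in the knockdown libraries, against 746 in the control, and changes of 0.07 and 0.46. Both lie on the plus strand of chromosome 10, DDX21 at 68956128 to 68985073 and DDX50 at 68901278 to 68946847.

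Among the nucleolar helicases of the large subunit, DDX24 had 2397 and 1800 counts in the knockdown libraries, against 1293 in the control, with changes of 0.80 and 0.25. DDX27, needed for the maturation of large-subunit rRNA, had 4212 and 5561 counts against 3223, with changes of 0.30 and 0.56. In both genes the knockdown libraries lay above the control, but unlike DHX37 they lay apart from each other. DHX33, which promotes rRNA gene transcription, had 1019 and 1223 counts in the knockdown libraries, against 1347 in the control, with changes of -0.49 and -0.36, so both were below it. DDX49, DDX52, DDX18, DDX51, DDX55 and DDX47, whose yeast counterparts act in rRNA processing, had mean changes from -0.05 to 0.23, the highest being DDX49.

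DDX10, whose yeast counterpart releases a snoRNA from the early precursor, had 1311 counts in knockdown library 1 and 473 in library 2, against 819 in the control. Its levels were 92.5 and 30.4 CPM against 61.5 CPM, so the control lay between knockdown libraries 3.03-fold apart. DDX54 had 2177 and 1282 counts in the knockdown libraries, against 1779 in the control, and DDX31 had 1014 and 637 against 961. DDX56 was similar to these, with 1531 and 1007 counts in the knockdown libraries and 1429 in the control. For DDX54, DDX31 and DDX56 the low library was knockdown library 2, while library 1 differed from the control by at most 0.20 on the log2 scale. DDX10 was the 1 member of 48 whose knockdown libraries differed at least 2-fold, where 15.7% of all genes tested and 10.4% of those averaging 100 counts or more did. The median absolute difference between the knockdown libraries was 0.37 over the members with at least 100 counts and 0.36 over all such genes, on the log2 scale. Each knockdown library is a single sample, so none of these differences has a test.

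**Figure D2:**
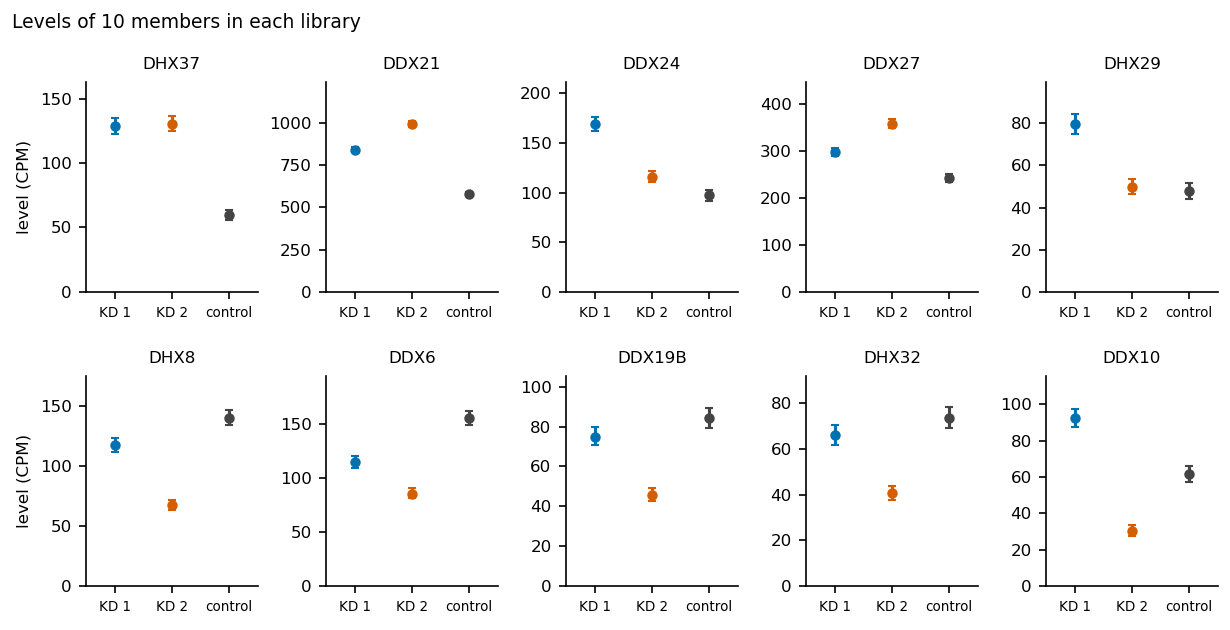
Levels in CPM of 10 members in knockdown libraries 1 and 2 (KD 1, KD 2) and the control library, with exact Poisson 95% intervals (counting error only). DHX37 is at 129 and 130 CPM against 59.6 CPM. In DDX10 the control, at 61.5 CPM, lies between knockdown libraries at 92.5 and 30.4 CPM.

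Promoter sequences are shown for the members at the ends of the range: DHX37 and DDX21, with the highest mean changes, and DHX8, with the lowest. Each is the 250 bases before a RefSeq gene start on GRCh38.p14, written 5′ to 3′ on the gene's strand, with matches to the ETS motif CCGGAAG in capitals. The windows are chr12:124989132-124989381 on the minus strand for DHX37, chr10:68955920-68956169 on the plus strand for DDX21 and chr17:43483725-43483974 on the plus strand for DHX8.
DHX37: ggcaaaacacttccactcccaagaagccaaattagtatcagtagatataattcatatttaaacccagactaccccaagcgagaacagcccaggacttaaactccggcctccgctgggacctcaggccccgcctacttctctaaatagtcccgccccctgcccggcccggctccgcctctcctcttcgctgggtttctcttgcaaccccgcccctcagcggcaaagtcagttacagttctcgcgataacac
DDX21: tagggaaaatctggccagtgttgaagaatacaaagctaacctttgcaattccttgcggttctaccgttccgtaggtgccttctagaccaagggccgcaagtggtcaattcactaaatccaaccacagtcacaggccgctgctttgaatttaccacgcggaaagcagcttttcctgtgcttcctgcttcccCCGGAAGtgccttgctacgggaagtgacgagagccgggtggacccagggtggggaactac
DHX8: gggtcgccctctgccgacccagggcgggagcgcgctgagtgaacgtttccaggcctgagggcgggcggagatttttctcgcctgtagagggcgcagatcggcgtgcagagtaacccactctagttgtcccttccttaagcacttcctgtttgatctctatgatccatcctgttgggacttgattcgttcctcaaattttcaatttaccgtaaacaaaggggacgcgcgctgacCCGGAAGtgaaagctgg

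RefSeq promoter windows were found for 47 of the 52 members, some of which have more than 1 start. CCGGAAG on either strand was present in 18 of the 47 (38.3%), and in 2215 of 15843 protein-coding genes (14%). The E-box CACGTG, which reads the same on both strands, was present in 9 (19.1%), against 9.73% of protein-coding genes. TATAAA on either strand was present in 4 (8.51%), against 11.9%. None of these motifs was in the window of DHX37. DDX21 has a further start downstream whose window holds an E-box. The motifs do not contain each other, and these matches describe the letters of the windows only.

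The 12 spliceosomal and splicing-linked members, DDX39B among them, had median changes of 0.04 and -0.05, with 4 above the control in both knockdown libraries and 3 below it in both, beside the same 33.4% and 33.5% of all genes tested. DHX8, which releases the finished mRNA from the spliceosome, had 1664 and 1049 counts in the knockdown libraries, against 1867 in the control. The levels were 117 and 67.4 CPM against 140 CPM, so both knockdown libraries were below the control, with changes of -0.26 and -1.05. The mean log2 change was -0.66 ± 0.56 (SD, n = 2), the lowest of the 48 (edgeR, adjusted p = 0.999). DDX41, a spliceosomal helicase also tied to the sensing of cytosolic DNA, had 2704 and 1603 counts in the knockdown libraries, against 2429 in the control, so only library 2 lay below it.

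DDX46, which remodels the U2 particle at the branch site, had 3863 and 5892 counts in the knockdown libraries, against 3567 in the control. Both were above the control, at 0.02 and 0.50. DHX15, which takes the spent spliceosome apart, had 5560 and 5839 counts in the knockdown libraries, against 5769 in the control, and changes of -0.14 and -0.21. DHX16 and DHX38, which drive the catalytic steps, DDX23, which lets the tri-snRNP dock, DDX42 and DHX35 had mean changes from -0.11 for DHX35 to 0.23 for DDX42. DDX5 and DDX17 are paralogs that act in splicing, transcription and microRNA processing. DDX5 had 7632 and 6484 counts in the knockdown libraries, against 7669 in the control, and DDX17 had 5054 and 7928 against 6648. The low library was knockdown library 2 for DDX5 and knockdown library 1 for DDX17.

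DDX39B, the helicase at the centre of the TREX export complex and a splicing factor, could not be read apart from its readthrough row. DDX39B had 3813 and 3785 counts in the knockdown libraries, against 2632 in the control, or 269 and 243 CPM against 198 CPM. ATP6V1G2-DDX39B had 0 and 0 counts in the knockdown libraries, against 637 in the control. Both knockdown libraries were thus above the control in one row and empty in the other. Taking 3 counts per library as the limit that a count of 0 allows, the readthrough row was at least 226-fold lower in library 1. In library 2 it was at least 248-fold lower. Both folds take the 637 counts of the control as exact, and a wider limit on 0 counts would make them smaller. The DDX39B row alone had log2 changes of 0.44 and 0.30 (edgeR, adjusted p = 0.999). With the counts of both rows added before the fit, there were 3813 and 3785 counts in the knockdown libraries, against 3269 in the control. The levels were then 269 and 243 CPM against 246 CPM, so the control lay between the knockdown libraries, and the changes were 0.13 and -0.01 (edgeR, adjusted p = 0.999). The readthrough row held 19.5% of the counts of the pair in the control and 0% in both knockdown libraries.

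**Figure D3:**
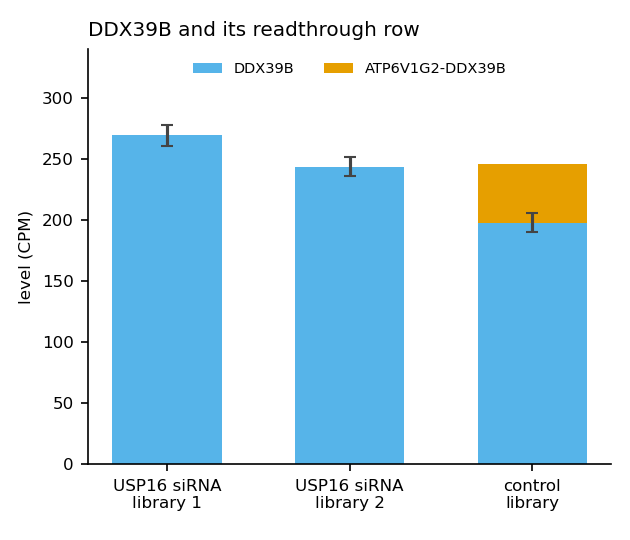
Stacked levels in CPM of DDX39B (lower part, with exact Poisson 95% intervals) and ATP6V1G2-DDX39B (upper part) in knockdown libraries 1 and 2 and the control library. The stack is 269, 243 and 246 CPM high, and an upper part is present in the control library alone.

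The annotation shows how little sets the readthrough row apart from DDX39B. In GENCODE 29 on hg38, DDX39B lies on the minus strand of chromosome 6 at 31530219 to 31542448, within the MHC region, and ATP6V1G2-DDX39B at 31530219 to 31546608. Of the 2372 exon bases of the readthrough gene, 2079 are exons of DDX39B, 293 are exons of ATP6V1G2, which encodes a subunit of the vacuolar proton pump, and 0 belong to neither. In the other direction more is particular: over all its transcripts DDX39B has 7007 exon bases, of which 4928 lie outside the readthrough gene. ATP6V1G2 itself had 13 and 25 counts in the knockdown libraries, against 23 in the control. Only the splice junctions that join both genes are particular to the readthrough gene. Their sequences are shown because a read must cross one to identify it, with 15 bases of ATP6V1G2 in lower case and the first 15 bases of the DDX39B side in capitals.
Junction of ENST00000376185 and ENST00000480131: agcaagcagcaggcgACAGGCATTTTCCAA
Junction of ENST00000475917: ctcttataattccagCTAGGGCCTGCCGGT

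The first junction joins an exon that ends at 31546109 to one that begins at 31542148, and the second joins 31544698 to 31542443. Both transcripts with the first junction are annotated as targets of nonsense-mediated decay, and the other as a processed transcript. Whether any of the 637 counts crossed a junction cannot be seen in gene counts, and the counting method is not given in the sources used here.

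DDX39A, the close paralog of DDX39B, had 1148 and 960 counts in the knockdown libraries, against 940 in the control, with changes of 0.20 and -0.19. DDX19A and DDX19B sit at the nuclear pore, where they strip export factors from mRNA. DDX19A had 2768 and 2815 counts in the knockdown libraries, against 2472 in the control, and DDX19B had 1064 and 712 against 1124. The changes were 0.07 and -0.04 for DDX19A and -0.17 and -0.88 for DDX19B, which was below the control in both libraries (edgeR, adjusted p = 0.999 for each).

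Sequence sharing was counted for the main transcript of each member as the number of 50-base windows found, on either strand, in a GENCODE transcript of another gene. For 21 of the 52 members it was 0, and for 39 it was under 10% of windows. DDX39B shared 95.2% of its windows, all of them with the readthrough gene, whose own main transcript had 48 windows of 1990 found in no other gene. DDX47 shared 99.7% with APOLD1, a gene whose GENCODE transcripts hold the same stretches. APOLD1 had 222 and 361 counts in the knockdown libraries, against 88 in the control. With APOLD1 and DDX47 added before the fit, a choice made after seeing the data, the mean change was 0.06, against -0.05 for DDX47 alone. DDX19A shared 62.2% of windows with RP11-529K1.3, which also shares windows with DDX19B, and 707 windows with DDX19B itself. DDX11, a DNA helicase of sister chromatid cohesion, shared 40.1%, of which 1114 windows were found in the pseudogene DDX12P. DDX11 had 1190 and 1612 counts in the knockdown libraries, against 1253 in the control, and DDX12P had 919 and 1128 against 925. The paralogs DDX39A, DDX5, DDX17, DDX21 and DHX15 and the genes DHX37 and DHX8 shared 0 windows with any other gene.

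Of the members in translation and decay, DDX6, which represses translation and promotes decapping in P-bodies, had 1624 and 1329 counts in the knockdown libraries, against 2070 in the control. The levels were 115 and 85.4 CPM against 155 CPM, so both knockdown libraries were below the control. The mean log2 change was -0.65 ± 0.30 (SD, n = 2), close to that of DHX8 (edgeR, adjusted p = 0.999). DHX29, which helps the ribosome scan structured leaders, had 1129 and 773 counts in the knockdown libraries, against 636 in the control, and its higher value came mainly from library 1 (0.74 and 0.06). DHX57, a related helicase, had 1627 and 1799 counts against 1429, with changes of 0.10 and 0.11. DDX3X, a translation factor for structured mRNAs, had 6914 and 10770 counts in the knockdown libraries, against 8198 in the control, which lay between them. DHX34, which acts in nonsense-mediated decay, had a mean change of 0.09.

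The remaining roles gave small or uneven values. DHX9 and DHX36, which unwind G-quadruplexes among other structures, had mean changes of 0.05 and 0.25. DDX1, part of the tRNA ligase complex, had 3942 and 7050 counts in the knockdown libraries, against 4458 in the control. DDX20, the Gemin3 subunit of the SMN complex, had 507 and 467 counts against 510. The mitochondrial ribosome factor DHX30 had 2381 and 2052 counts in the knockdown libraries, against 2583 in the control (-0.21 and -0.56), and DDX28, of the same compartment, had 422 and 269 against 325. DHX32, related to DHX15 and of unclear function, had 936 and 632 counts in the knockdown libraries, against 979 in the control (-0.15 and -0.85). DHX40, DDX59 and DDX26B, the last an older symbol of the Integrator-related gene INTS6L, had mean changes from -0.21 to -0.08. DHX58, which encodes the viral RNA sensor LGP2, had 22 and 48 counts in the knockdown libraries, against 26 in the control, and was the 1 measured member under a mean of 100 counts.

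The 4 germ line members did not pass the filter on low counts. DDX4, the germ cell helicase Vasa, DDX43 and DDX53 had 0 counts in every library. DDX25, a testis helicase, had 3 and 0 counts in the knockdown libraries and 2 in the control. A count of 0 allows up to 3 counts in a library. Of the 4 germ line markers, DAZL and TDRD1 were at 0 in all 3 libraries. MAEL had 0 and 1 counts in the knockdown libraries and 0 in the control, and SYCP3 had 0 and 2 in the knockdown libraries and 4 in the control.

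Per kilobase of main transcript, the family spanned a wide range of levels. Each rank depends on the transcript length used. For DDX17 this is 2190 bases, while all its annotated exons cover 9995 bases. DDX17 had the highest control value, with 163 and 233 CPM per kb in the knockdown libraries and 228 CPM per kb in the control. DDX5 had 211 and 163 CPM per kb in the knockdown libraries and 226 in the control, so the order of these genes is not settled by these libraries. DHX15 (131 and 125 CPM per kb in the knockdown libraries, 145 in the control) and DHX9 (135 and 157 against 141) followed, with DHX9 the higher of them in both knockdown libraries and DHX15 in the control. DDX21 moved to the second highest value in both knockdown libraries, with 178 and 211 CPM per kb, against the fifth in the control, with 123. DDX1, at 98.7 and 161 CPM per kb in the knockdown libraries and 119 in the control, was the last of the 6 members above 100 CPM per kb in the control. Another 40 members lay between 10 and 100 CPM per kb there, and DDX20, with 9.09, and DHX58, with 0.746, were the lowest of those measured. DHX37 stood at 28.3 and 28.6 CPM per kb in the knockdown libraries, against 13.1 in the control. By counts alone, DDX3X, DHX9, DDX21, DDX5, DDX17 and DHX15 held 38.5% and 43.5% of the family's counts in the knockdown libraries and 41.0% in the control.

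**Figure D4:**
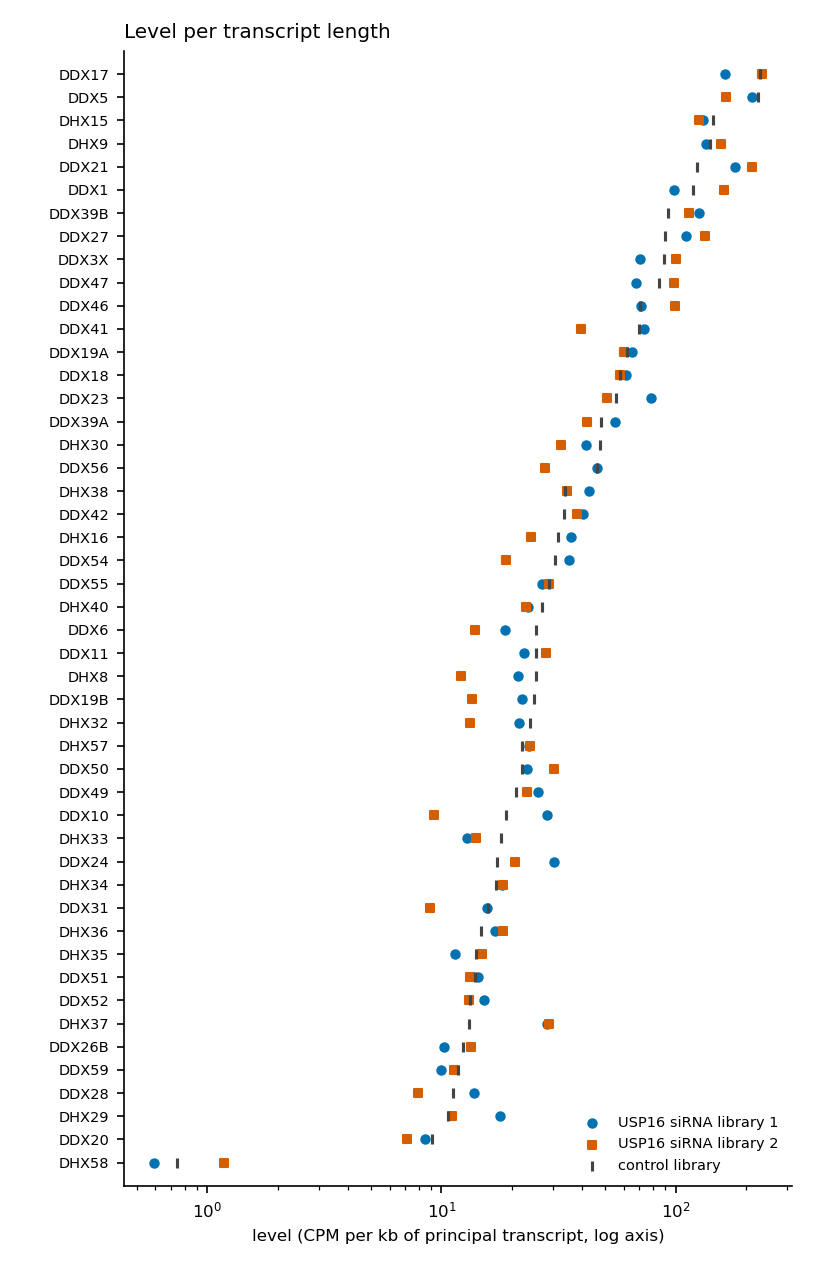
Level of the 48 measured members in CPM per kilobase of main transcript, on a log axis, in knockdown library 1 (circles), knockdown library 2 (squares) and the control library (vertical ticks), sorted by the control. The points of 1 gene mostly lie close together compared with the range between genes, which in the control runs from 0.746 for DHX58 to 228 for DDX17.

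Partners of these helicases were listed by complex: related helicases under other names, G-patch cofactors of DEAH helicases, TREX and export factors, DDX6 partners and the SMN complex. Of 62 symbols, 61 were in the files and 60 were measured, and 0 passed the test in either direction (edgeR, with 0 also at an unadjusted p under 0.05). Their median changes were 0.07 and 0.09, and both knockdown libraries were above the control for 27 and below it for 14, where 33.4% of all genes tested lay above and 33.5% below. GLE1, which activates the DDX19 helicases at the nuclear pore, had 870 and 974 counts in the knockdown libraries, against 448 in the control (0.86 and 0.89). EIF4A1, the DEAD box helicase of translation initiation, had 2755 and 2382 counts against 1356 (0.93 and 0.59). GPATCH8 had 1938 and 1844 counts in the knockdown libraries, against 981 in the control, and the decapping enzyme DCP2 had 222 and 448 against 175. At the low end, GPATCH4 had 995 and 667 counts in the knockdown libraries, against 1258 in the control, and LSM14B, a P-body protein that binds DDX6, had 735 and 1241 against 1472. CNOT1, the scaffold of the deadenylase that binds DDX6, had 6646 and 8677 counts in the knockdown libraries, against 9923 in the control (-0.67 and -0.42), and GEMIN4, the partner of DDX20, had 1091 and 946 against 1209. For the 16 TREX and export genes the medians were 0.18 and 0.28, with 9 above the control in both knockdown libraries and 4 below it in both, against those same shares of all genes.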

How the data were processed

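Per the file headers, each of the 3 deposited files gives a raw count for each of 50868 genes. HISAT2 2.0.4, StringTie 1.3.0 and hg38 are named, without roles, in the submitters' processing notes. How reads were counted, with which annotation and with what use of strand, is not given in the sources used here, so reads of overlapping or antisense genes cannot be told apart. The second knockdown file has the number 6 in its column header where the label has 2, and was used as labelled. All 52 members matched GENCODE 29 by gene identifier.

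Genes were filtered with filterByExpr, leaving 17287, scaled by TMM and tested over all genes with the quasi-likelihood test of edgeR 4.0.16 (R 4.3.3, Benjamini-Hochberg), 2 knockdown libraries against 1 control. Changes of log2 CPM used a prior count of 2, and intervals are exact Poisson or Wilson at 95%. The direction of change was checked on counts simulated with a fixed spread that was not taken from these libraries. That check does not show how often the test finds or misses genes here. Alternatives were DESeq2 1.42.0, median-ratio size factors, other filters, a prior count of 10, each knockdown library left out, and summed overlapping rows. The sums other than that of DDX39B, and the share of genes averaging 100 counts or more, were added after seeing the data. The members and lists were chosen with earlier results of these data known. Values were given for the 8 members with the highest and the 8 with the lowest mean change, the 6 with the highest level per length, the 5 whose knockdown libraries differed most, the paralog pairs, and 4 partners in each direction, all with a mean of at least 100 counts where changes were ranked. Others were added by role after their values were seen. The main transcript of a gene was the longest with the best APPRIS rank.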

Additional observations from a re-analysis of the deposited data

How the results depend on the processing

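The count of members past the threshold, 0 in each direction, held with DESeq2, median-ratio size factors, a prior count of 10, no low-count filter, and a filter at a mean of 100 counts. None of 126 values for the other 25 named members passed, in those settings or, for DDX19A, with overlapping rows summed. The count at least 2-fold higher was 1 in every setting. The count at least 2-fold lower was 0, and with one knockdown library left out it ranged from 0 to 2, the 2 being DHX8 and DDX10 in knockdown library 2 alone. With a minimum mean of 100 counts, where the TMM factors were computed anew, the median changes of the members were 0.072 in library 1 and 0.050 in library 2. The mean changes of DHX37, DDX6 and DDX39B moved alike, from 1.118, -0.651 and 0.372 to 1.158, -0.611 and 0.412. The cause was not tested. ATP6V1G2-DDX39B also passed with DESeq2, median-ratio size factors, no filter and a minimum mean of 100 counts. Its adjusted p (edgeR) ran from 4.1e-32 with no filter to 0.00412 with a minimum mean of 100 counts. No value is given for this row with a prior count of 10. These settings all use the same counts, so they are not independent of each other. DDX39B, at a mean of 0.37 alone, was at 0.06 with the readthrough counts added. Leaving out a library leaves no residual degrees of freedom and so gives values with no test. No paired analysis was possible because there was only 1 control library. With a single control library, how much that control varies could not be estimated at any depth.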
